A study of Mus musculus with 6 samples.

Results

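The MYC, MAX and MXD network is a set of 10 genes here: Myc, Max, Mxd1, Mxd3, Mxd4, Mxi1, Mnt, Mga, Mlx and Mlxip. They were taken by symbol from a table of 11866 genes measured by RNA-seq, and all 10 were listed. The cells were HCC3-4, a mouse liver tumour line that came from MYC transgenic mice. The KD group carried a stably transfected short hairpin against Sf3b3, which encodes a subunit of the SF3b splicing complex. The PLKO group carried the pLKO.1-TRC control vector. Each group had 3 libraries of poly(A) RNA, numbered 1 to 3, and both groups share the origin of the line in a MYC transgenic animal. The labels do not say which species the MYC transgene came from or what promoter drove it, so reads of a transgene and of the endogenous Myc gene cannot be told apart. They name no separate cultures either, and each p-value therefore stands for the variation among 6 libraries that may differ for technical reasons alone.

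The proteins of this network bind DNA as pairs through a basic helix-loop-helix leucine zipper domain. MAX is the common partner: MYC with MAX activates transcription at E-boxes, short DNA sites with the core letters CACGTG, whereas MXD1, MXD3, MXD4, MXI1 (also called MXD2) and MNT with MAX recruit SIN3 corepressors to such sites. MGA also binds MAX and is part of a Polycomb complex, and MLX pairs with MLXIP (MondoA), a sensor of glucose-derived metabolites. In liver, high MYC drives hepatocyte growth and tumours in mice.

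Since the proteins of the network bind E-boxes, the start-site windows of the members were read for CACGTG, a motif that is its own reverse complement. RefSeq promoter windows on GRCm38.p6, with 250 bases before and 50 after an annotated start, were matched by symbol for 9 of the 10 members (Myc had no entry). Of these 9 genes, 4 held the motif: Mnt, Mlx, Mxd4 and Max. Among 8263 tested genes with a window, 12.2% had it in at least 1 window, and 7.15% of all 32851 windows had it. The sites are shown in the direction of each gene, with the E-box in capitals. Such a match is a stretch of letters and was not tested for binding.
Mnt (chr11:74830774-74830833, plus strand, first E-box base 123 before the start): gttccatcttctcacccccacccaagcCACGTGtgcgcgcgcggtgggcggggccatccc
Mlx (chr11:101087223-101087282, plus strand, 40 before the start): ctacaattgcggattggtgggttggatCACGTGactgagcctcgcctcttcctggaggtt
Mxd4 (chr5:34187897-34187956, minus strand, 219 before the start): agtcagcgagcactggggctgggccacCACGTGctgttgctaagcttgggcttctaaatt
Max (chr12:76962246-76962278, minus strand, 3 before the start): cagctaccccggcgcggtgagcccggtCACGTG
Mxd1, Mxd3, Mxi1, Mga and Mlxip had no CACGTG in their windows. The 4 genes with the motif did not share a direction: the log2 difference between KD and PLKO was 0.75 for Mnt, -0.20 for Mlx, -0.65 for Mxd4 and -0.05 for Max.

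The listed genes of a library held 15140441 to 17566101 reads. The values are FPKM, in which fragments are divided by the length of the gene and by the size of the library. Levels of different genes can be compared only roughly, since they depend on the length taken for each gene. For Mxi1 that length was 5619 bases, where the annotated exons cover 6823 bases. Sf3b3 itself had 10.3, 9.56 and 13.9 FPKM in KD 1, 2 and 3, against 22.6, 28.7 and 29.2 FPKM in PLKO 1, 2 and 3. In KD it fell by 1.26 on the log2 scale (limma adjusted p = 0.037), but the call was lost without KD 1, KD 2, PLKO 1 or PLKO 2 (adjusted p 0.15, 0.19, 0.125 and 0.13). Libraries 3 of both groups stood apart from the others, with a correlation of 0.50 between their deviations from the group means over 10770 genes. Of 10 hepatocyte markers, 3 were listed (Afp, Krt8 and Krt18), and the defining genes Alb, Ttr, Apoa1 and Hnf4a were not among the listed genes. The sum of the 3 listed markers ran from 52.6 to 86.9 FPKM in KD and from 59.7 to 86.7 FPKM in PLKO. Most of it was Krt8, which overlapped between the groups, from 42.2 to 76.5 FPKM in KD and from 53.4 to 79.7 FPKM in PLKO. The low-level Afp, with a mean under 1 FPKM, was not tested. It was higher in every KD library, from 0.814 to 1.98 FPKM in KD and from 0.302 to 0.467 FPKM in PLKO. So was Krt18, from 8.411 to 9.598 FPKM in KD and from 5.27 to 6.62 FPKM in PLKO. Summed mesenchymal markers (7 of 9 listed) ran from 306.8 to 654.9 FPKM in KD and from 583.8 to 754.2 FPKM in PLKO, most of it Vim. Pdgfrb and Col3a1 were lower in every KD library, and so were Col1a1 and Col1a2, both at low levels of at most 1.58 FPKM. Vim, Des and Pdgfra overlapped, Pdgfra from 9.21 to 13.4 FPKM in KD and from 5.98 to 12.2 FPKM in PLKO. Of all tested genes 13.4% were higher in every KD library and 18.8% lower. The macrophage lysosomal gene Cd68, the 1 of 7 immune markers listed, ran from 44.4 to 95.02 FPKM in KD and from 9.19 to 42.1 FPKM in PLKO. Of 5 cholangiocyte or progenitor markers 3 were listed (Krt19, Sox9 and Spp1). Their sum overlapped between the groups, from 133.9 to 252.7 FPKM in KD and from 109.1 to 237.0 FPKM in PLKO. No endothelial marker of 4 was listed. The part of these differences in the results below was not tested.

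No member was called between KD and PLKO in the test over all genes, which does not show that none changed. Each of the 10 members had a mean of at least 1 FPKM and was tested, and 0 were called (limma with Benjamini-Hochberg adjusted p under 0.05), where 2.92% of the 10770 tested genes were. At an unadjusted p under 0.05 there was 1 member, Mnt, against 27.6% of all tested genes. With voom on recovered read counts 0 members were called, with voom and quality weights 3 were, in a fit that called 35.8% of all genes, and with array weights 3 were, in a fit that called 56.0%. Of the members 5 had a positive and 5 a negative log2 difference, with a median of 0.02 beside -0.04 over all tested genes. The KD and PLKO values did not overlap for 3 members, Mnt, Mga and Mxi1, which were higher in every KD library. No member was lower in every KD library. Among all tested genes 13.4% were separated upward, 18.8% downward and 32.1% in either direction, so the share of members in either direction is near the background.

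**Figure D1:**
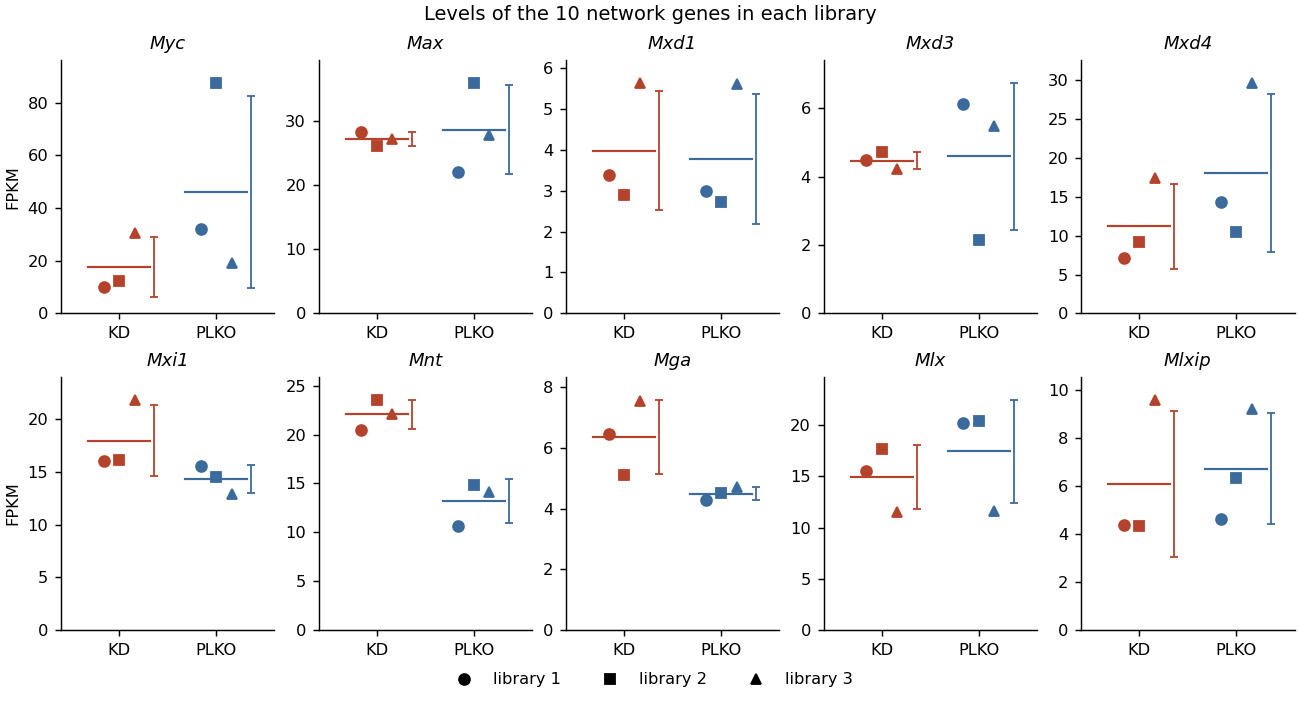
Level of each network gene (FPKM, linear axis from 0) in KD libraries on the left and PLKO libraries on the right. Points are single libraries with the number given by the symbol, horizontal lines are group means and vertical bars are 1 SD (n = 3). Mnt is separated between the groups, from 20.5 to 23.5 FPKM in KD and from 10.6 to 14.9 FPKM in PLKO, whereas Myc overlaps, from 9.88 to 30.6 FPKM in KD and from 19.1 to 87.5 FPKM in PLKO.

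Myc, the activator of the network, had 9.88, 12.2 and 30.6 FPKM in KD 1, 2 and 3, against 32.01, 87.5 and 19.1 FPKM in PLKO 1, 2 and 3. These values rest on 413, 523 and 1456 reads in KD and 1573, 3972 and 819 reads in PLKO. The groups overlap: KD 1 and KD 2 were the lowest libraries and PLKO 2 by far the highest, but KD 3 stood above PLKO 3. The gene spans chromosome 15 from 61985391 to 61990374 (GRCm38, plus strand). Its mean was 17.6 ± 11.3 FPKM in KD and 46.2 ± 36.3 FPKM in PLKO (SD, n = 3 each), and the log2 difference of -1.29 had a 95% interval from -2.58 to 0.01. Myc was not called (adjusted p = 0.18 in limma, and 0.067 with the replicate number as a block), and the exact two-sided permutation test gave p = 0.2, where 3 against 3 libraries cannot go below 0.1.

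Myc varied more within the groups than nearly all other genes. Its within-group SD was 1.00 on the log2 scale, above that of 97.5% of tested genes, where the median gene had 0.33. The highest and lowest KD libraries differed 3.10-fold and the PLKO libraries 4.58-fold. Set against the PLKO library of the same number, Myc differed by -1.70 in KD 1, by -2.84 in KD 2 and by 0.68 in KD 3 on the log2 scale. In the libraries numbered 1 and 2 Myc was thus lower in KD, and in those numbered 3 it was higher. Without both libraries numbered 3 the log2 difference was -2.27 (limma adjusted p = 0.0067, in a fit that called 27.9% of all genes), and without PLKO 2 it was -0.68 (adjusted p = 0.43).

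**Figure D2:**
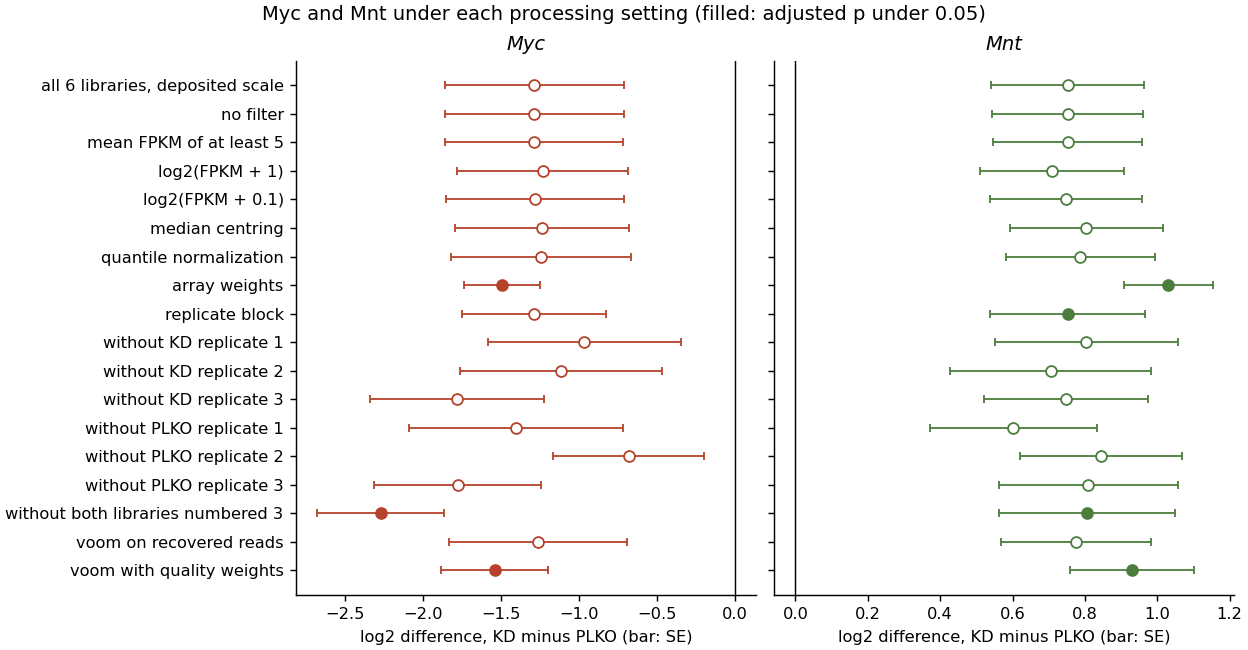
Log2 difference, KD minus PLKO, of Myc (left) and Mnt (right) under each processing setting, with bars of 1 SE. Filled points have an adjusted p under 0.05. Myc runs from -2.27 to -0.68 and Mnt from 0.60 to 1.03.

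Mycl, the one paralog of Myc among the listed genes, is a low-level MYC family member that is not part of the set. It had 2.61, 2.55 and 1.44 FPKM in KD 1, 2 and 3, against 1.30, 2.02 and 1.19 FPKM in PLKO 1, 2 and 3. The groups overlap, with KD 3 below PLKO 2, and the log2 difference of 0.54 was not called (limma adjusted p = 0.38).

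Max, the shared dimer partner, overlapped between the groups. It had 28.3, 26.1 and 27.3 FPKM in KD 1, 2 and 3, against 22.1, 35.99 and 27.95 FPKM in PLKO 1, 2 and 3. All KD libraries lay inside the range of the PLKO libraries, and PLKO 2, which had the most Myc, also had the most Max. The log2 difference was -0.05 with a 95% interval from -0.55 to 0.46 (limma adjusted p = 0.91). Changes of more than 1.47-fold downward or 1.38-fold upward lie outside this interval.

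The ratio of Myc to Max within a library put the libraries in the same order as Myc itself. It was 0.349, 0.467 and 1.12 in KD 1, 2 and 3, against 1.45, 2.43 and 0.683 in PLKO 1, 2 and 3. Max exceeded Myc in KD 1, KD 2 and PLKO 3, and Myc exceeded Max in the other libraries.

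Mnt, the broadly expressed repressor that competes with MYC for MAX, had the smallest p of the members. It had 20.5, 23.5 and 22.2 FPKM in KD 1, 2 and 3, against 10.6, 14.9 and 14.2 FPKM in PLKO 1, 2 and 3. Every KD library stood above every PLKO library, on 1465 to 1798 reads in KD and 888 to 1148 reads in PLKO. The gene (chromosome 11 from 74830920 to 74845725, plus strand) had a mean of 22.06 ± 1.504 FPKM in KD and 13.21 ± 2.273 FPKM in PLKO (SD, n = 3 each). Its log2 difference was 0.75 (SE 0.21, 95% interval 0.28 to 1.23), a 1.69-fold higher level in KD.

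Whether Mnt was called depended on the fit, and the labels do not say that libraries of equal number are pairs. With the group alone its limma adjusted p was 0.072, and with the replicate number as a block it was 0.030. Mnt was then the 1 member of 10 called, in a fit that called 19.3% of all tested genes, 8.19% higher and 11.1% lower. The exact two-sided permutation test reached its lowest possible value, p = 0.1. By library number Mnt was higher in KD by 0.95, 0.66 and 0.65 on the log2 scale. Leaving out each library in turn gave log2 differences from 0.60 to 0.84, all positive, with limma adjusted p from 0.061 to 0.27.

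Mnt stayed below Max in every library, but it came closer to Max in the KD libraries than in the PLKO libraries. The ratio of Mnt to Max was 0.724, 0.8998 and 0.813 in KD 1, 2 and 3, against 0.480, 0.413 and 0.507 in PLKO 1, 2 and 3, so the groups did not overlap. The ratio of Mnt to Myc was 2.08, 1.93 and 0.725 in KD 1, 2 and 3, against 0.332, 0.170 and 0.742 in PLKO 1, 2 and 3. In FPKM, Mnt thus exceeded Myc in KD 1 and KD 2 alone, and KD 3 and PLKO 3 had nearly the same ratio.

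**Figure D3:**
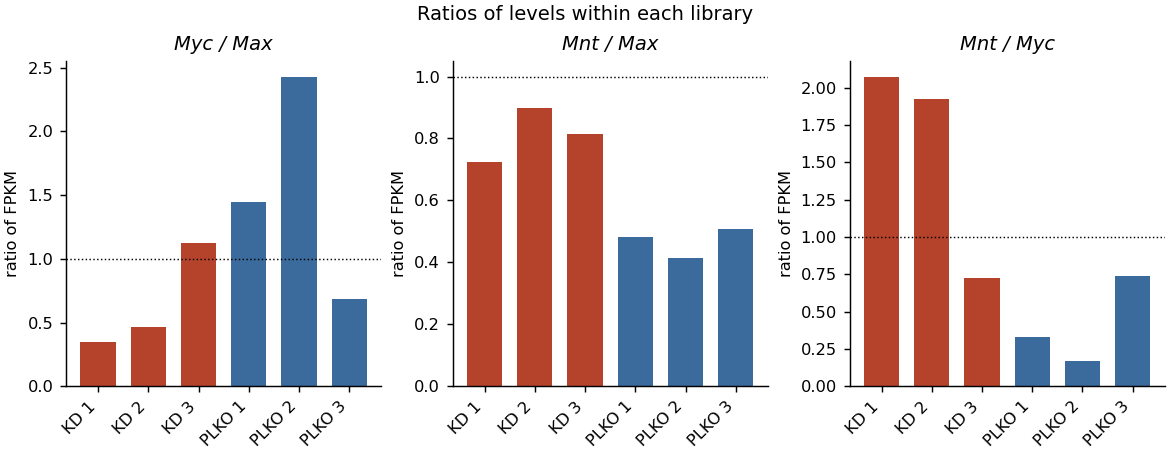
Ratios of FPKM within each library for Myc to Max, Mnt to Max and Mnt to Myc, with KD libraries in red and PLKO libraries in blue and the dotted line at 1. Mnt to Max is higher in all KD libraries (0.724 to 0.8998) than in the PLKO libraries (0.413 to 0.507), and Mnt to Myc is above 1 in KD 1 and KD 2.

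The MXD genes encode small repressors that often come up as cells stop dividing and differentiate. Mxi1 had 16.0, 16.1 and 21.9 FPKM in KD 1, 2 and 3, against 15.6, 14.5 and 13.0 FPKM in PLKO 1, 2 and 3. The groups did not overlap, but KD 1 and KD 2 lay within 1 FPKM of PLKO 1, and KD 3 carried most of the difference. The log2 difference was 0.31 (95% interval -0.17 to 0.79, limma adjusted p = 0.36), on 1388 to 2153 reads in KD and 1150 to 1585 reads in PLKO.

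Mxd4 varied most after Myc. It had 7.14, 9.15 and 17.4 FPKM in KD 1, 2 and 3, against 14.3, 10.5 and 29.7 FPKM in PLKO 1, 2 and 3. The groups overlap, the library numbered 3 was the highest in each group, and each KD library lay below the PLKO library of its number, by 1.00, 0.19 and 0.77 on the log2 scale. The log2 difference of -0.65 (95% interval -1.63 to 0.33) was not called, at an adjusted p of 0.35 in limma and of 0.064 under the replicate block.

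Mxd1 and Mxd3 had the lowest means over the 6 libraries, 3.87 and 4.53 FPKM. Mxd1 had 3.38, 2.90 and 5.62 FPKM in KD 1, 2 and 3, against 2.98, 2.73 and 5.60 FPKM in PLKO 1, 2 and 3. Libraries of the same number were nearly equal, within 0.18 on the log2 scale, and libraries 3 were highest (log2 difference 0.09, limma adjusted p = 0.89).

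Mxd3, the family member known from dividing rather than resting cells, had 4.47, 4.71 and 4.21 FPKM in KD 1, 2 and 3, against 6.13, 2.15 and 5.49 FPKM in PLKO 1, 2 and 3. The KD libraries lay between the PLKO libraries, and PLKO 2, the library with the most Myc, had the least Mxd3 on 83 reads. The log2 difference was 0.10 (95% interval -0.78 to 0.97, limma adjusted p = 0.89). Mxd3 overlaps Prelid1 on the opposite strand, and whether strand was used in counting is not given in the sources used here, so reads of both genes may be mixed.

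Summed over Mxd1, Mxd3, Mxd4, Mxi1 and Mnt, the repressor transcripts came to 51.5, 56.4 and 71.3 FPKM in KD 1, 2 and 3, against 49.6, 44.7 and 67.9 FPKM in PLKO 1, 2 and 3. The sum was highest in library 3 of each group and overlapped between groups, but its makeup differed. Mnt supplied 39.8%, 41.7% and 31.1% of it in KD 1, 2 and 3, against 21.4%, 33.2% and 20.9% in PLKO 1, 2 and 3. Mxd4 supplied 13.9%, 16.2% and 24.4% in KD 1, 2 and 3, against 28.8%, 23.4% and 43.7% in PLKO 1, 2 and 3. Both shares overlap between the groups at KD 3, which lay below PLKO 2 for Mnt and above it for Mxd4.

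Mga, a very large protein that carries a T-box besides its MAX-binding domain, had 6.47, 5.10 and 7.52 FPKM in KD 1, 2 and 3, against 4.28, 4.51 and 4.70 FPKM in PLKO 1, 2 and 3. Every KD library stood above every PLKO library, with a gap of under 1 FPKM between KD 2 and PLKO 3. The log2 difference was 0.48 (95% interval -0.04 to 1.01, limma adjusted p = 0.21, and 0.16 with the replicate block). Its mean was 6.36 ± 1.22 FPKM in KD and 4.50 ± 0.209 FPKM in PLKO (SD, n = 3 each), so the PLKO libraries lay closer together.

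Mlx and its partner Mlxip were opposed in the libraries numbered 3. Mlx had 15.6, 17.7 and 11.5 FPKM in KD 1, 2 and 3, against 20.3, 20.4 and 11.6 FPKM in PLKO 1, 2 and 3. Mlxip had 4.37, 4.31 and 9.58 FPKM in KD 1, 2 and 3, against 4.61, 6.34 and 9.19 FPKM in PLKO 1, 2 and 3. The library numbered 3 was the lowest for Mlx and the highest for Mlxip in each group, and the groups overlap for both. Neither passed the test: Mlx had a log2 difference of -0.20 (limma adjusted p = 0.67) and Mlxip of -0.19 (adjusted p = 0.76). The ratio of Mlxip to Mlx was 0.281, 0.244 and 0.830 in KD 1, 2 and 3, against 0.228, 0.310 and 0.790 in PLKO 1, 2 and 3. Mlx overlaps Psmc3ip on the opposite strand, with the same limit as for Mxd3.

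**Figure D4:**
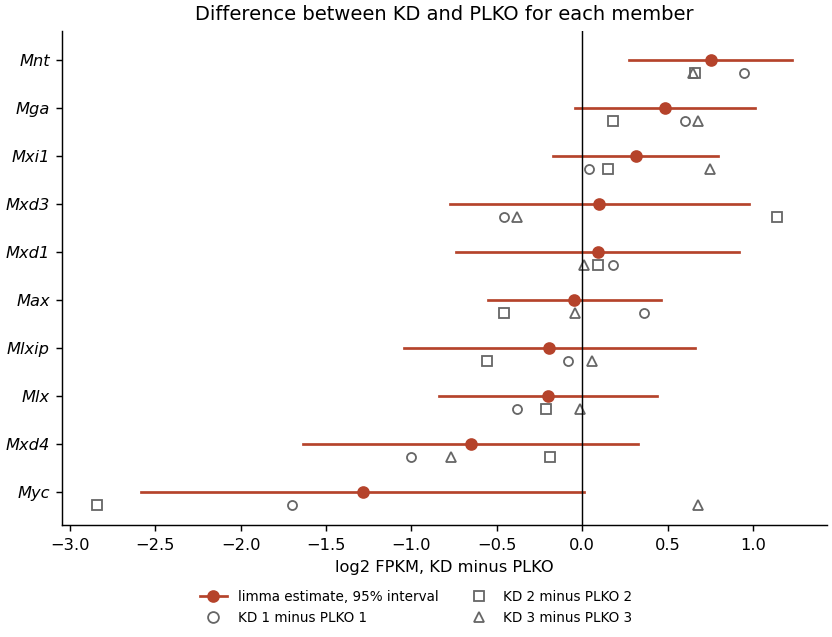
Difference of each member, KD minus PLKO, in log2 FPKM. Filled points with bars are the limma estimates with 95% intervals and open symbols are differences between libraries of the same number. The Mnt interval, 0.28 to 1.23, lies above 0, and the single differences of Myc run from -2.84 to 0.68.

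The order of levels differed between the groups, although most neighbours in it overlapped. In KD the order of means was Max, Mnt, Mxi1, Myc, Mlx, Mxd4, Mga, Mlxip, Mxd3 and Mxd1, and only Max stood clear of the next member in all libraries. In PLKO it was Myc, Max, Mxd4, Mlx, Mxi1, Mnt, Mlxip, Mxd3, Mga and Mxd1, and only the neighbours Mnt and Mlxip did not overlap. By mean level Mnt ranked 2 in KD and 6 in PLKO, and Myc ranked 4 in KD and 1 in PLKO.

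Libraries numbered 3 were the highest or the lowest in both groups for 5 of 10 members, near the 44.2% of all tested genes with either pattern. In both groups library 3 was the highest for Mxd1, Mxd4, Mga and Mlxip, 4 of 10 members, where 19.3% of all tested genes had that pattern. It was the lowest in both for 1 member, Mlx, where 24.9% of tested genes were. Mxd1 stood 0.61 above its mean over the 6 libraries in KD 3 and 0.60 above it in PLKO 3, and Mlxip 0.67 and 0.61. Myc had neither pattern: it was 0.34 above its mean in KD 3 and 0.34 below it in PLKO 3.

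**Figure D5:**
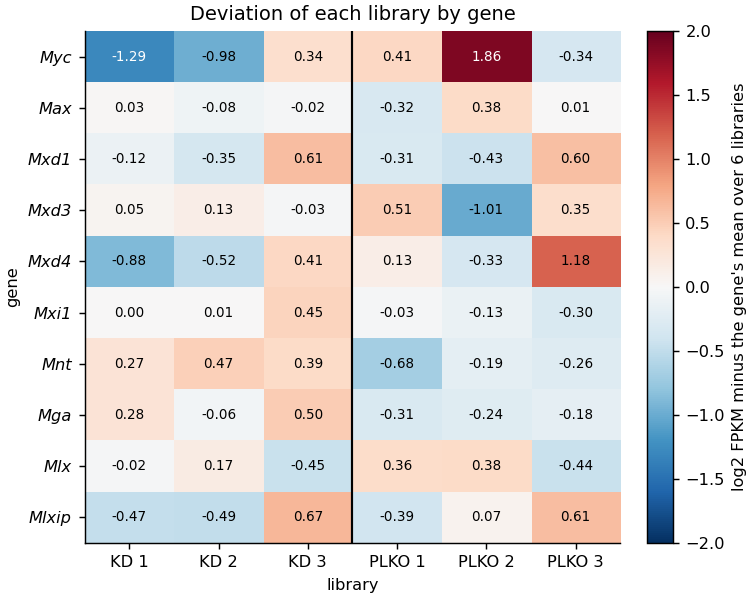
Deviation of each library from the gene's mean over the 6 libraries, in log2 FPKM, with genes in rows and KD libraries left of PLKO libraries. Mnt is positive in all KD and negative in all PLKO libraries, Mlxip is 0.67 in KD 3 and 0.61 in PLKO 3, and Myc reaches -1.29 in KD 1 and 1.86 in PLKO 2.

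Among the other members none tracked Myc closely over the 6 libraries. Pearson r with Myc on the log2 values ran from -0.66 for Mxd3 and -0.48 for Mnt to 0.46 for Max, given as a description of libraries that also differ by group. On deviations from the group means r was 0.29 for Mnt, of the opposite sign, 0.71 for Mxi1 (-0.02 without that step) and -0.76 for Mxd3. Of 10304 other tested genes, predicted genes left out, 285 had an r above 0.9 and 195 below -0.9. The 5 genes most like Myc were Mettl6 (r = 0.995), Fkbp15 (0.992), Sgsm2 (0.991), Wdfy1 (0.989) and Uprt (0.987). Sgsm2 had 1.28, 1.47 and 3.41 FPKM in KD 1, 2 and 3, against 3.59, 6.68 and 2.48 FPKM in PLKO 1, 2 and 3, with the same order of libraries as Myc. Mettl6, a tRNA methyltransferase, had that order in a narrower range, with 3.88, 4.05 and 4.79 FPKM in KD against 4.93, 5.89 and 4.56 FPKM in PLKO. The 5 most opposed were Nectin1 (-0.992), Cers5 (-0.992), Snrpg (-0.990), Luc7l3 (-0.989) and Mrps30 (-0.989). Snrpg and Luc7l3 encode splicing proteins, and Snrpg had 101.0, 84.0 and 64.7 FPKM in KD against 58.3, 37.2 and 71.0 FPKM in PLKO. None of these 10 genes was called between the groups (limma adjusted p from 0.18 to 0.46). They were chosen by their r with Myc in the same 6 libraries. Since Myc was not called either, this is no separate result.

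Among genes that MYC is known to activate, few were called. Of 32 listed targets 31 were tested, and 2 fell (6.45%, against 1.79% of all tested genes) while 0 rose (limma, against 1.12% of all). At an unadjusted p under 0.05 in limma there were 9 of the 31, where 27.6% of all tested genes were. Ccnd2, a G1 cyclin, had 8.61, 8.08 and 10.3 FPKM in KD 1, 2 and 3, against 19.9, 25.2 and 26.1 FPKM in PLKO 1, 2 and 3, and fell by 1.40 on the log2 scale (limma adjusted p = 0.031). Shmt2, a mitochondrial serine hydroxymethyltransferase, fell by 1.34 (adjusted p = 0.033). Rrp12, a ribosome assembly factor, had a log2 difference of -1.43 that was not called (limma adjusted p = 0.055). The list had 21 members with a negative difference and a median of -0.35, beside -0.04 over all tested genes. With the replicate block 6 were lower and 0 higher, so that 19.4% of the list was lower against 11.1% of all genes. Other weights gave both directions: 7 were higher and 11 lower with array weights, and 2 higher and 10 lower with voom and quality weights. Array weights called 56.0% of all 10770 tested genes, 2904 higher and 3126 lower. Voom with quality weights called 35.8% of them, 1791 higher and 2069 lower. Across libraries the median deviation of the list was highest in PLKO 2, at 0.49, the library with the most Myc. It was -0.07, -0.09 and -0.23 in KD 1, 2 and 3 and -0.02 and 0.05 in PLKO 1 and 3, so the list was lowest in KD 3, where Myc was highest among the KD libraries.

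The other lists held few calls. Of 9 tested genes that MYC is known to repress 0 were called (limma, 4 at an unadjusted p under 0.05, 0 with voom and 4 with voom and quality weights), with a median of 0.01. Over all tested genes limma called 2.92%, 27.6% had an unadjusted p under 0.05, and voom with quality weights called 35.8%. Klf6 and Btg2, growth-restraining early genes, had log2 differences of 0.83 and 0.60, and Cdkn2b, an inhibitor of cyclin D kinases, of -0.76 (limma adjusted p 0.071, 0.093 and 0.12). With the block Cdkn1a and Klf6 were higher, 22.2% of the list, where 8.19% of all genes were higher and 19.3% called in either direction. Weights gave both directions for this list: 3 higher and 2 lower with array weights, and 3 higher and 1 lower with voom and quality weights. Without both libraries numbered 3 there were 1 higher and 3 lower. These fits called 56.0%, 35.8% and 27.9% of all tested genes. Of 18 MYC cofactors 1 was called: Smarcb1, a core SWI/SNF subunit that binds MYC, had 3.11, 3.95 and 6.51 FPKM in KD 1, 2 and 3, against 14.1, 19.3 and 12.3 FPKM in PLKO 1, 2 and 3. That call is 5.56% of the list, against 2.92% of all tested genes. At an unadjusted p under 0.05 in limma there were 3 of the 18, where 27.6% of all tested genes were. The replicate block also called 1 of the 18, Smarcb1, and called 19.3% of all genes. Smarcb1 fell by 1.80 on the log2 scale (limma adjusted p = 0.036), while the helicase gene Ruvbl1 and Hcfc1 had differences of 0.76 and 0.62 (adjusted p 0.092 and 0.13).

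Genes that control how long MYC protein lasts gave 0 calls of 18 (limma, 6 at an unadjusted p under 0.05, 0 with voom and 9 with voom and quality weights). Limma called 2.92% of all tested genes and put 27.6% at an unadjusted p under 0.05, and voom with quality weights called 35.8%. The ubiquitin ligase Stub1 and the phosphatase inhibitor Set had log2 differences of -0.72 and -0.83 (limma adjusted p 0.064 and 0.070). Both were lower with the replicate block, and Skp2, an F-box ligase subunit for MYC, was higher. In all 22.2% of the list was called with the block, against 19.3% of all genes.

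Corepressors of the MXD and MNT proteins gave 0 calls of 17 SIN3 complex genes (limma, 7 at an unadjusted p under 0.05, 0 with voom and 9 with voom and quality weights), where all tested genes had 2.92% called, 27.6% at an unadjusted p under 0.05 and 35.8% with quality weights. With the replicate block 2 of the 17 were called (11.8%, below the 19.3% of all genes). Sin3a, the scaffold, had 35.8, 35.5 and 23.1 FPKM in KD 1, 2 and 3, against 18.5, 16.0 and 14.6 FPKM in PLKO 1, 2 and 3. Its groups did not overlap, and the log2 difference of 0.92 had a limma adjusted p of 0.062 (0.015 with the replicate block). Brms1l, another subunit, had a difference of -0.91 (limma adjusted p = 0.052, and 0.015 with the block), and Sap30 of -0.63 (adjusted p = 0.14).

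In the Polycomb complex that contains MGA, 1 of 10 genes was called, where 2.92% of all tested genes were. At an unadjusted p under 0.05 in limma there was also 1 of the 10, where 27.6% of all tested genes were. With the replicate block 1 was called (10.0% of the list, below the 19.3% of all genes). Yaf2, a subunit that binds the RING1 proteins, had 17.3, 15.0 and 15.9 FPKM in KD 1, 2 and 3, against 33.6, 39.1 and 27.3 FPKM in PLKO 1, 2 and 3, and fell by 1.04 on the log2 scale (limma adjusted p = 0.044). Ring1 and Tfdp1 had differences of -0.55 and 0.58 and did not pass (limma adjusted p 0.19 and 0.24).

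Targets of MondoA and its relative ChREBP gave 0 calls of 12 tested genes (limma, 5 at an unadjusted p under 0.05, 0 with voom and 5 with voom and quality weights). All tested genes had 2.92% called and 27.6% at an unadjusted p under 0.05 in limma, and 35.8% called with quality weights. The differences of these targets were of both signs. Tkfc, a fructose pathway enzyme, had -1.51, and the lipid enzymes Elovl6 and Fasn had 1.05 and 0.76 (limma adjusted p 0.062, 0.069 and 0.084). With the replicate block 6 of the 12 were called, 2 higher and 4 lower, where the same fit called 8.19% of all genes higher and 11.1% lower. Txnip, the best-known MondoA target, was among the lower ones with a difference of -1.20 (limma adjusted p = 0.013 with the block and 0.11 without it).

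None of Ccnd2, Shmt2, Smarcb1 and Yaf2 was called without KD 1, KD 2, PLKO 1 or PLKO 2, since limma called 0 genes in each of these fits (1818, 1793, 2217 and 2315 at an unadjusted p under 0.05).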

How the data were processed

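Poly(A) RNA of HCC3-4 cells was sequenced in 3 KD and 3 PLKO libraries. The authors deposited 1 table of log2 FPKM for 11866 genes. The submitters' processing notes name GRCm38 and FastQC 0.11.7. Which aligner, counter, strand setting and gene filter were applied is not given in the sources used here. That the deposited values are log2 was read from the values. The low values showed an added prior (2.0 reads per library on average), and with it read counts were recovered (100.0% of genes whole within 0.01 reads in all libraries, 10893 with GENCODE M21 lengths and 973 with a length found by scanning, Mxi1 among them). The prior understates fold changes of genes with few reads.

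The test was limma 3.58.1 (R 4.3.3) on the deposited values with a trend of variance with mean, group alone, over the 10770 genes with a mean of at least 1 FPKM, with Benjamini-Hochberg adjusted p under 0.05 called. FPKM are powers of 2 of the deposited values. Exact permutation tests used scipy 1.17.1. Deviations from group means correlated at 0.18, 0.29 and 0.50 for libraries numbered 1, 2 and 3, all above 0.1, and on this evidence from the data, with no label behind it, equal numbers were treated as pairs. However, PLKO 1 correlated more with KD 2 (0.27) than with KD 1, and KD 1 more with PLKO 2 (0.3) than with PLKO 1. Deviations cancel out within a group, so the likeness of libraries 3 alone can give such values. The correlations therefore cannot show that equal numbers are pairs. Results with the replicate block or by library number rest on that choice. Alternatives were other filters, pseudocounts, scalings, weights, left-out libraries and voom on recovered reads with trimmed-mean scaling.

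The members and lists were chosen with earlier results of these data known. Named genes were the members, Sf3b3, the 5 genes with the highest and the 5 with the lowest Pearson r with Myc, and up to 3 members of each list with the lowest adjusted p, of which 1 is not reported here. Cdkn1a, Skp2, Txnip and the marker genes were named after their values were seen. Hk2 is in 2 lists. Gene coordinates are 1-based from GENCODE M21 on GRCm38.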

Additional observations from a re-analysis of the deposited data

How the results depend on the processing

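With the replicate block 2080 genes were called, with array weights 6030, with voom and quality weights 3860 and without both libraries numbered 3 3009, against 314 in the fit reported. The array weights did not fully converge, and the cause of the higher counts was not tested. Network members called were 1 with the replicate block (Mnt), 3 with array weights and 3 with quality weights (Mnt, Mxd4 and Myc), and 2 without both libraries 3 (Mnt and Myc). Myc then had log2 differences of -1.49 (array weights), -1.54 (quality weights) and -2.27 (without libraries 3), with limma adjusted p of 0.00060, 0.0063 and 0.0067. In the same order (block, array weights, quality weights, without libraries 3), calls were 6, 18, 12 and 5 among MYC activated targets, 2, 5, 4 and 4 among repressed targets, 4, 13, 9 and 6 among turnover genes, 2, 13, 9 and 6 among SIN3 genes and 6, 7, 5 and 5 among MondoA and ChREBP targets. Cofactors had 6, 4 and 4 and the MGA complex 5, 3 and 2 under the last 3 settings. Leaving out 1 library gave from 0 to 1744 called genes (0 without KD 1, KD 2, PLKO 1 or PLKO 2, 801 without PLKO 3, 1744 without KD 3), 0 members in each case, 0 to 4 activated targets, 0 to 2 cofactors, 0 to 4 turnover genes, 0 to 4 SIN3 genes, 0 to 2 MGA complex genes and 0 to 3 MondoA and ChREBP targets. The Myc difference ran from -1.78 to -0.68 and that of Sf3b3 from -1.43 to -1.15.

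No call of a member turned its sign. Among uncalled members, Max was 0.0048 with median centring, 0.0073 with quantile normalization, 0.11 with array weights and 0.039 with quality weights, Mxd1 -0.12 and -0.11 and Mxd3 -0.16 and -0.023 with those weights. Leaving out 1 library gave -0.22 to 0.13 for Max, -0.19 to 0.42 for Mxd1, -0.38 to 0.38 for Mxd3 and -0.57 to 0.063 for Mlxip. The replicate block changed the call of no member other than Mnt. Filters, pseudocounts, centring, quantile normalization and voom without quality weights called 0 members. For Mxd3 83 to 261 reads per library limit the precision.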
